A study of Mus musculus with 2 samples.

Results

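Frame-shifting cassette exons are internal exons that some transcripts of a gene include and others skip, and whose length is not a multiple of 3, so that inclusion and skipping read the downstream sequence in different frames. The 463 exons described here lie in 431 genes and were drawn from 44961 internal exons with at least 20 informative reads in each library. They are 52 to 300 bp long and occur in a model that matches an annotated transcript. Their inclusion was the share of reads that join the exon to both neighbouring exons, among those reads and the reads that join the same neighbours directly. The exons were chosen by their measured inclusion (a mean of 5 to 95% over the libraries) and by their read counts, so the inclusion levels are given as description and were not tested. At most 3 of the exons came from 1 gene, 31 genes held more than 1, and 14 exons shared both neighbours, and so their skipping reads, with another of the set.

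The data are long-read RNA sequencing of left cerebral cortex from male mice of 14 days of age, of the strain B6CASTF1/J, a cross of C57BL/6J with the wild-derived CAST/EiJ. There was 1 group of 2 libraries, labelled as biological replicates, with 2 µg of starting RNA each. The donor identifier is shared between them and the descriptions mention several males, so either may be a pool, and p-values here set the libraries against counting error only. The libraries held 775048 mouse reads in replicate 1 and 924222 in replicate 2, of which 634886 and 743774 were spliced. Marker levels differed between the libraries, in CPM (reads scaled to the mouse reads of the library). The excitatory neuron markers Slc17a7 (1368 and 1316) and Neurod6 (49.0 and 42.2) were close, and Nrgn was at 1942 and 3525. Summed markers of oligodendrocytes were at 2423 and 1574, of striatum at 809 and 202, of blood at 214 and 428 and the choroid plexus marker Ttr at 36.1 and 247. The striatal receptor gene Drd2 was at 0 reads in replicate 2. The part of tissue composition in the inclusion levels was not tested, and in bulk tissue a level mixes all cell types.

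Exons are joined or left out by the spliceosome under the control of RNA-binding proteins, many of which are enriched in neurons. When an exon of uneven frame is left out or added, translation usually runs into a stop codon that the full protein does not use. A stop that lies well upstream of the last exon junction marks a transcript for nonsense-mediated decay, and exons whose inclusion brings in such a stop are known as poison exons. Splicing factor genes use poison exons to limit their own expression.

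The sequences below show how a stop enters the reading frame, for exons the results turn on. All are reference mm10 bases from the GENCODE M21 transcripts, which do not carry CAST/EiJ alleles. The first set is the exons of splicing factor genes, and of the Polycomb-associated gene Yaf2, that brought a stop into the frame when included. Each is printed from its first base to the stop, which is in capitals. They lie at chr2:156178881-156178952 on the minus strand (Rbm39), chr2:162932815-162932966 on the plus strand (Srsf6), chr2:130176695-130176752 on the minus strand (Snrpb), chr17:80044976-80045022 on the minus strand (Hnrnpll) and chr15:93317554-93317608 on the minus strand (Yaf2). The number of bases that complete a codon begun in the exon before is 0 for Rbm39, 2 for Srsf6, 1 for Snrpb, 2 for Hnrnpll and 1 for Yaf2.
Rbm39, included exon: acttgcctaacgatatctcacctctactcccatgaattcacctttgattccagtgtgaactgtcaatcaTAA
Srsf6, included exon: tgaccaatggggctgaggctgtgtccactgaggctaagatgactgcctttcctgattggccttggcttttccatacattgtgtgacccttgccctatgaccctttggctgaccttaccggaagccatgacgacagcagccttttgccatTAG
Snrpb, included exon: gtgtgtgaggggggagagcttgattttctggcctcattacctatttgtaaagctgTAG
Hnrnpll, included exon: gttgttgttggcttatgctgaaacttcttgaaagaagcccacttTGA
Yaf2, included exon: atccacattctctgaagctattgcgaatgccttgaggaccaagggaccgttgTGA

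The second set shows the opposite case, in which skipping shifted the frame of the next exon and a stop (in capitals) followed. They lie at chr5:139302352-139302395 on the minus strand (Adap1), chr11:55489019-55489037 on the plus strand (G3bp1) and chr2:152322209-152322271 on the minus strand (Rbck1). Here 2, 1 and 0 bases, in that order, complete a codon begun before the skipped exon.
Adap1, exon after the skip: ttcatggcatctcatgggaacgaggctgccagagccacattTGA
G3bp1, exon after the skip: gaaatccacaggaaagTGA
Rbck1, exon after the skip: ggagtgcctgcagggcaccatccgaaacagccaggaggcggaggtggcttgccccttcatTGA

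The third set holds exons that gave the protein another carboxy terminus, printed from the first exon base to the stop (in capitals), at chr3:126841485-126841551 (Camk2d) and chr4:139288861-139288963 (Capzb), both on the plus strand. The bases that complete a codon begun before are 1 in both.
Camk2d, included exon: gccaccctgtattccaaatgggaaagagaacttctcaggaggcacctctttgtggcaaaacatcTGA
Capzb, included exon: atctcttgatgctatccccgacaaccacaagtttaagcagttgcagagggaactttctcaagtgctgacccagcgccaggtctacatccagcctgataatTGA

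The fourth set is a pair of exons that replaced each other on the reads. The Flot2 exons, at chr11:78053363-78053453 and chr11:78054785-78054875 on the plus strand, are printed whole, with differing bases in capitals. They are identical at 60 of 91 positions (65.9%).
Flot2, upstream exon: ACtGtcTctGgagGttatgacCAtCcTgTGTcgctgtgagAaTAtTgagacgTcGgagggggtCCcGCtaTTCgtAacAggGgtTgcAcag
Flot2, downstream exon: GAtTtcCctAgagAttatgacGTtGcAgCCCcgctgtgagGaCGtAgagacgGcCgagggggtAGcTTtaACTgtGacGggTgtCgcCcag

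Most frame-shifting exons were included on most reads. The median of their mean inclusion was 87.5%, with quartiles of 51.9 and 92.8%, and 287 of 463 (62.0%) lay at 80 to 95%. Another 72 lay at 5 to 20%, 42 at 20 to 50% and 62 at 50 to 80%. Over the 508 exons of the same size and inclusion limits whose length is a multiple of 3, called frame-keeping below, the median was 74.9% and 223 (43.9%) lay at 80 to 95%. The limits set which exons entered both sets, so these are descriptions without a test. Just inside the lower limit stood Atp5j (5.13%), Uqcr10 (5.23%) and Cetn3 (5.32%), and just outside it Gpm6b (4.96%), Eif5a (4.93%) and Zfand6 (4.84%). At the upper limit Crot, Mybbp1a and Tdp2 stood at 95% and were kept, while Tmem222 (95.01%), Cul4a (95.02%) and a further Zcchc17 exon (95.03%) were not.

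The exons had a median length of 110 bp and a median GC content of 50% over the 462 with a sequence. A length remainder of 1 after division by 3 was found in 220 exons and a remainder of 2 in 243. The median intron before them was 2602 bp and the median intron after them 2204 bp, against 1892 and 2020 bp for frame-keeping exons and 1151 and 1035 bp for the 36905 annotated exons of this size with inclusion above 95%. A median of 2 exons preceded them in the leading transcript and 5 followed, against 5 and 6 for frame-keeping exons. By their leading annotated transcript, 288 (62.2%) lay wholly in coding sequence, 65 in 5′ untranslated sequence, 63 held a start or stop codon, 34 belonged to transcripts annotated as decay targets and 13 to other non-coding transcripts. Of the 508 frame-keeping exons, 418 (82.3%) were coding and 31 were 5′ untranslated. Median inclusion was 90.3% for coding frame-shifting exons, 73.8% for those with a start or stop codon, 31.2% for 5′ untranslated exons and 15.5% for exons of decay transcripts.

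The skipped form of these exons was often missing from the annotated models with reads. A model matching an annotated transcript carried the skipping junction for 217 of 463 exons, against 314 of 508 frame-keeping exons. Without such a model, as in Adap1 and G3bp1, inclusion over Known models only was 100%. Chains of the deposited class NIC, in which known splice sites are joined in a new combination, held 29.5% of skipping reads and 12.6% of inclusion reads of the frame-shifting exons. For frame-keeping exons the shares were 23.3% and 18.2%.

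Reading the leading full-length chain of each form from its annotated start codon sorted the exons by their effect on the protein. A stop was called early when it lay at least 50 bases before the last exon junction. Skipping gave an early stop, and inclusion did not, in 204 exons, and the reverse held in 37. Both forms kept start and stop in 54, used another stop in 77, another start in 37 and both another start and another stop in 5. Both forms held an early stop in 9, and the outcome was not determined in 40. Among the 508 frame-keeping exons, 389 (76.6%) kept start and stop, and skipping gave an early stop in 6 and inclusion in 19. As a check of the reader, 2660 of 2673 complete coding transcripts of these genes (99.5%) reached their annotated stop.

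Where 1 of the forms held an early stop, that form had the smaller share of reads in most exons. Read shares count the transcripts present in the tissue, and the part of decay in them was not tested. Among the 204 exons with an early stop on skipping, inclusion led in 200 and the median inclusion was 90.7%. Among the 37 with an early stop on inclusion, skipping led in 34 and the median inclusion was 10.9%. Together the early-stop form was the minor form in 234 of 241 exons (97.1%), and in 232 of 241 it was so in both libraries at once. Some of these exons overlap or share skipping reads, so they are not independent. Without the exons whose early stop ended before the exon or join, the count was 218 of 225 (96.9%). For comparison, inclusion led in 58 of 77 exons with another stop that was not early and in 269 of 389 frame-keeping exons that kept start and stop. No test was run on these shares, since inclusion levels chose the exons, the start codons come from the annotation, and the skipped form can be absent from it. Of the full-length reads whose frame could be read, summed over all frame-shifting exons, 6369 of 54802 (11.6%) carried an early stop. A read that covers more than 1 of the exons counts once for each, and its stop may come from elsewhere in the chain.

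**Figure D1:**
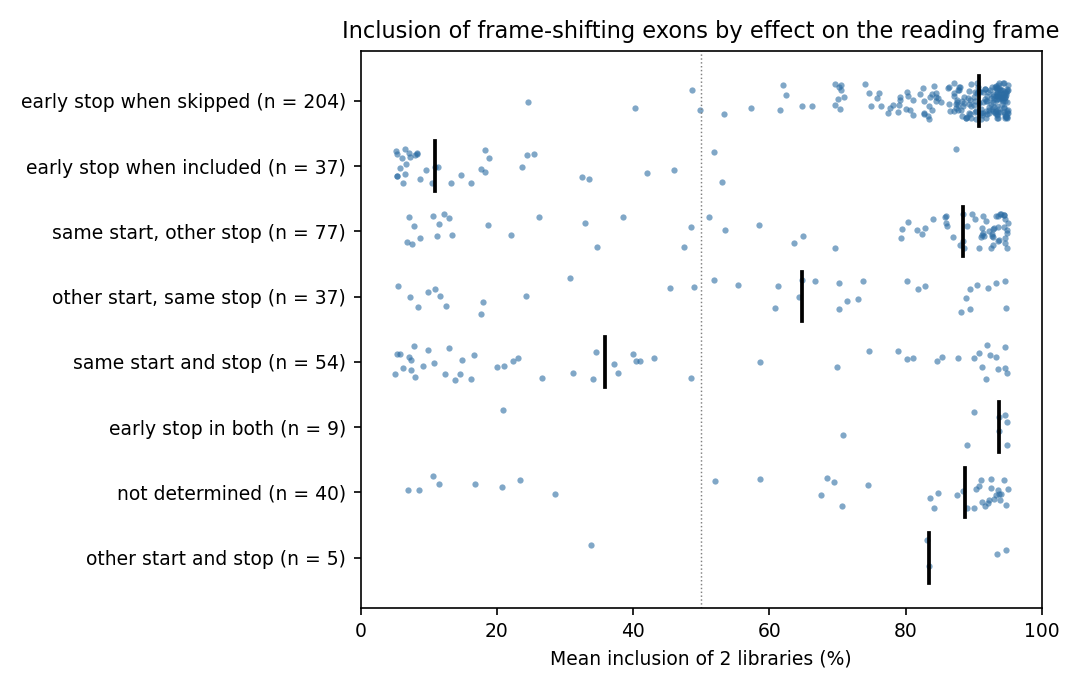
Each point is 1 frame-shifting exon, placed by its mean inclusion in percent (x axis) and by the effect of the exon on the reading frame (y axis), and black bars are medians. The median was 90.7% where skipping gave an early stop and 10.9% where inclusion did.

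The 7 exons whose early-stop form was the leading one, named after their values were seen, mostly stood near equal use. Rbck1, a subunit of the linear ubiquitin ligase complex, had 51 inclusion and 50 skipping reads in replicate 1 and 66 and 75 in replicate 2 (48.7% ± 2.61, mean ± SD, n = 2). Its skipped form would stop after 270 codons in place of 508. With Known models only, the Rbck1 and Plpp1 exons stood at 100% and Surf1 at 70.1%, so that the skipped forms of Rbck1 and Plpp1 rest on other classes of model. The Plpp1 exon of 155 bp stood at 49.9%, Ntan1 at 40.3%, Surf1 at 51.8% and Sphkap at 53.1%, with Sphkap at 34.8% in replicate 1 and 71.4% in replicate 2. The Plpp1 level leaves out reads with a further exon of 152 bp in its place, a swap that keeps the frame. Reads with both, the 155-bp exon only, the 152-bp exon only and neither numbered 4, 12, 12 and 15 in replicate 1. In replicate 2 they were 1, 15, 20 and 14, so over these reads the early-stop form did not lead in Plpp1. Farther from equal use were Rnf114, at 28.0 and 21.1% inclusion with an early stop on skipping, and Mocs2, at 80.95 and 93.9% with an early stop on inclusion. Mocs2 is annotated with 2 reading frames, and the frame followed here is only one of them.

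Early stops on skipping mostly ended after the join, and no comparison was made with how soon a stop follows in other shifted frames. The stop ended after the join in 190 of 204 exons and before it in 14. In the 190, it ended a median of 42.5 bases into the next sequence, and in 120 it ended within 60 bases. The early frame held a median of 18.3% of the codons of the other form. Adap1, a brain-enriched GTPase-activating protein for Arf, carried the exon with most reads of the set, 131 bp at chr5:139307742-139307872. It was included on 483 reads and skipped on 90 in replicate 1 and included on 655 and skipped on 120 in replicate 2, which is 84.3 and 84.5%. Skipping would stop after 41 codons in place of 374, 44 bases into the next exon. The stress granule protein G3bp1 had 240 inclusion and 6 skipping reads in replicate 1 and 297 and 26 in replicate 2 (97.6 and 92.0%), and its skipped frame held 37 codons in place of 465. The poly(A)-binding protein gene Zc3h14 (68.7 and 70.7%) and the aminopeptidase gene Xpnpep1 (61.5 and 63.3%), named after their values were seen, were skipped on a larger share of reads in both libraries.

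Early stops on inclusion lay inside the exon in 26 of 37 cases, after it in 9 and before it in 2. Of the 37 exons, 28 belonged to transcripts annotated as decay targets. That label comes from the same annotation as the start codons, so it is no independent check. Yaf2 was used more than the other decay exons printed above, with 107 inclusion and 106 skipping reads in replicate 1 and 118 and 165 in replicate 2 (50.2 and 41.7%). Its included form stopped after 68 codons in place of 179. Lower in both libraries was an exon labelled Gm45837, which its annotated transcripts place in the phosphodiesterase gene Pde2a, at 17.5 and 11.98%. The mitochondrial gene Uqcr10 stood at 5.88 and 4.57%, and its included form held 58 codons in place of 64.

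**Figure D2:**
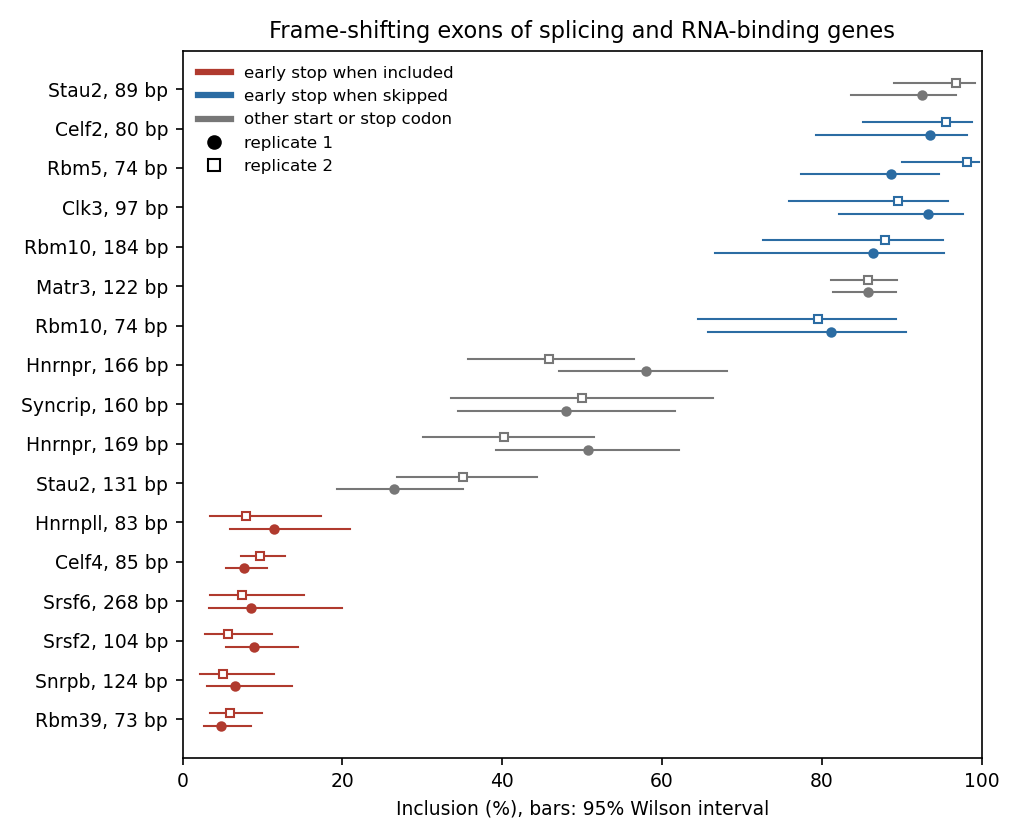
The 17 frame-shifting exons in genes of a list of 116 splicing and RNA-binding genes, with inclusion in percent for replicate 1 (filled circles) and replicate 2 (open squares) and 95% Wilson intervals, which cover counting error only. The 6 exons with an early stop on inclusion lie lowest and the 5 with an early stop on skipping lie above 79%.

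Splicing and RNA-binding genes held exons of both kinds. A list of 116 such genes held 17 frame-shifting exons, of which 11 had an early stop in 1 form. Over all 463 frame-shifting exons the count was 241. The same list held 17 frame-keeping exons, of which 1 did. Early stops were rare in frame-keeping exons as a whole, by the counts given above, so this contrast is not particular to the list. The list was written with earlier results of these data known and supports nothing by itself. Exons with an early stop on inclusion were included on few of the reads. Rbm39, a splicing coactivator, had 10 inclusion and 198 skipping reads in replicate 1 and 12 and 192 in replicate 2 (4.81 and 5.88%). Snrpb, a core component of spliceosomal snRNPs, had 6 and 5 inclusion reads (6.59 and 5.10%). The SR proteins that bind exonic enhancers gave 8.51 and 7.41% for Srsf6 (4 and 6 inclusion reads) and 8.92 and 5.65% for Srsf2. Hnrnpll, a splicing regulator of the hnRNP family, stood at 11.4 and 7.94%. With Known models only the levels were lower, at 1.69% for Rbm39, 2.39% for Srsf2, 3.91% for Hnrnpll and 0.463% for Celf4, while Srsf6 stayed at 7.96%. The low counts give wide intervals, from 3.36 to 19.9% for Srsf6 in replicate 1. The Srsf2 exon lies after the normal stop, with 221 codons in both forms, and moves that stop to 217 bases before the last junction. Celf4, a neuronal splicing regulator, stood at 7.66 and 9.70%. Its exon also lies after the stop, which ends 44 bases before it and 129 bases before the last junction on inclusion. The 474 codons on inclusion against 484 on skipping thus reflect a difference of the 2 chains upstream of the exon. The skipped form of Celf4 ends 44 bases before the last junction, just short of the limit of 50 bases for an early stop.

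The exons of other splicing genes ranged more widely. Rbm5, Clk3, Celf2 and both Rbm10 exons had an early stop on skipping and stood at mean inclusions from 80.3% (the Rbm10 exon of 74 bp) to 94.6% (Celf2). Their skipped forms rest on few reads, from 2 in each library (Celf2) to 7 and 8 (the Rbm10 exon of 74 bp). With Known models only, Clk3, Celf2 and both Rbm10 exons stood at 100% and Rbm5 at 94.0%. Exons of Syncrip, Hnrnpr and Stau2 changed the start codon. Syncrip stood at 47.9 and 50%, with 562 codons on inclusion and 464 on skipping. Its relative Hnrnpr had 2 overlapping forms of the exon, of 166 and 169 bp, at 58.0 and 45.9% and at 50.7 and 40.3%, which share their skipping reads, with 632 codons on inclusion and 531 on skipping. Stau2, which carries RNA into dendrites, stood at 26.5 and 35.1% for its exon of 131 bp. In Syncrip the intervals of the libraries overlapped, and with Known models only the exon stood at 68.9%. Matr3, a nuclear matrix protein, stood at 85.8% in both libraries, with 259 inclusion and 43 skipping reads in replicate 1 and 235 and 39 in replicate 2, and ended after 846 codons on inclusion and 793 on skipping.

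Exons that changed the carboxy terminus without an early stop included several cytoskeletal and kinase genes. Camk2d, a CaMKII kinase subunit, included its 89-bp exon on 51 reads against 97 in replicate 1 and 38 against 83 in replicate 2 (34.5 and 31.4%), giving 533 codons against 512. Capzb, the beta subunit of the actin capping protein, included its 113-bp exon on 32 reads against 205 and 36 against 231 (13.5% in both libraries), giving 277 codons against 272. Tpm3, a tropomyosin, stood at 8.39 and 7.31% with 248 codons in both forms, and at 26.8% with Known models only. Dclk1, a microtubule-associated kinase, stood at 38.2 and 38.9% with 422 codons on inclusion and 433 on skipping. The list of 43 cytoskeleton and trafficking genes held 5 frame-shifting exons, in Tpm3, Dclk1, Map4 and Sept11, all with another stop that was not early. The Sept11 entries are overlapping forms of 68 and 65 bp that share their skipping reads (12 in replicate 1 and 18 in replicate 2). The count of this outcome over all 463 exons is given above, and so short a list supports no theme. The list of 74 synapse and ion channel genes held 3, in Camk2d and, with an early stop in 1 form each, in Dnm2 at mean inclusions of 93.9 and 8.30%. The 8.30%, for the Dnm2 exon of 139 bp, counts only reads between its leading neighbours and understates its use. With any neighbours, full-length reads that ended at the leading last exon included it on 48.3% in replicate 1 and 43.5% in replicate 2. Reads that ended elsewhere included it on 16.7 and 36.7%. The membrane protein gene Mpzl1 lay near equal use, at 52.4 and 44.6%, with 270 codons on inclusion and 209 on skipping. The kinase gene Brsk2, which acts in neuronal polarity, had 21 inclusion and 13 skipping reads in replicate 1 and 26 and 38 in replicate 2, so that the leading form differed between the libraries, and stood at 22.9% with Known models only.

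Of the 65 5′ untranslated exons, 52 kept start and stop, 7 used another start, 1 used another stop, 1 had an early stop in both forms and 4 were not determined. Of the 63 exons with a start or stop codon, 24 used another start and 15 another stop. Hmgcs1, an enzyme of cholesterol synthesis, included its 59-bp 5′ untranslated exon on 236 reads against 338 in replicate 1 and 217 against 330 in replicate 2 (41.1 and 39.7%), with 520 codons in both forms. Morf4l2, a chromatin gene, stood at 16.9 and 25.3%, and Cdc42se2, a Cdc42 effector, at 83.2 and 87.5%. The splicing factor gene Slu7 stood at 55.1 and 42%, with 585 codons in both forms, and at 2.5% with Known models only. The non-coding RNA Meg3 included its 94-bp exon on 12 reads against 113 in replicate 1 and 13 against 158 in replicate 2, and with Known models only it stood at 100%. Exons that changed the start included those of the corepressor gene Ctbp1 (74.2 and 73.3%, 430 codons on inclusion and 441 on skipping), the Arp3-related gene Actr3b (64.2 and 65.5%, 418 and 330) and the immune adaptor gene Tollip (5.32 and 5.75%, 270 and 274). In all 3 the libraries differed by under 2 percentage points. With Known models only, Ctbp1 stood at 37.9%, which turns its leading form.

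Inclusion was not shown to differ between the libraries for any frame-shifting exon. The two-sided Fisher's exact test with Benjamini-Hochberg adjustment over 7491 exons called 0 of 463, and 0 of all 7491 (0%), and a chi-square test of the same counts also called 0 of 463. At an unadjusted p under 0.05 there were 25 of the 463 (5.4%), 22 of the 508 frame-keeping exons (4.33%) and 99 of the 7491 (1.32%), most of which lie above 95% or under 5% inclusion. The lowest p was that of G3bp1 (p = 0.00509 by Fisher's exact test, adjusted p = 1). The median absolute difference between libraries was 4.40 percentage points, against 4.65 for frame-keeping exons, and the largest difference was 36.6 points, in Sphkap. In data simulated at the depth of all 7491 exons, a difference of 20 points was called in 19 of 200 altered exons and one of 40 points in 150 of 200, so smaller differences could go undetected at this depth. The altered exons were drawn from those of middle inclusion only, and the simulated noise was counting error alone. Most of the set lies outside that range (median inclusion 87.5%), where recovery was not measured.

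**Figure D3:**
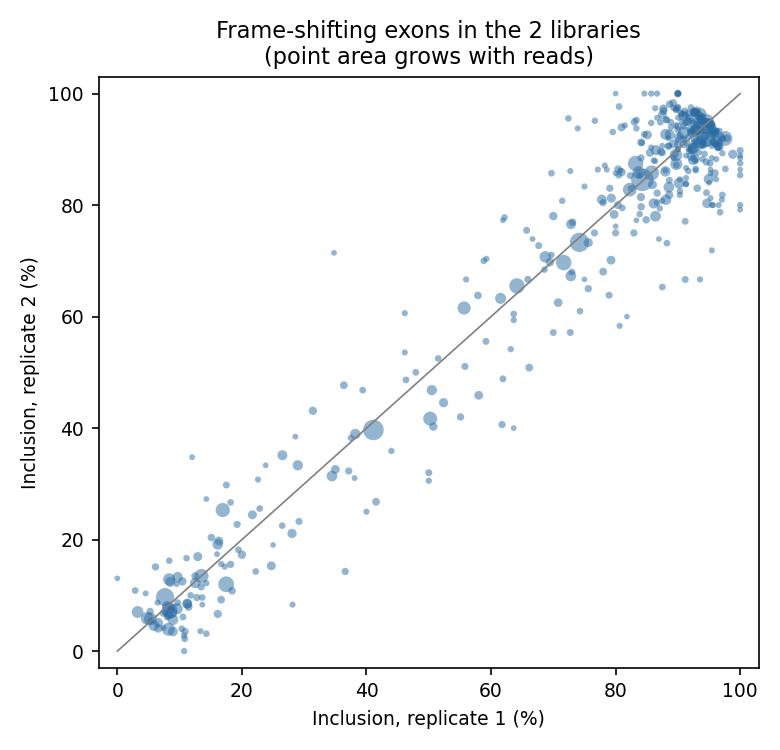
Each point is 1 frame-shifting exon, with inclusion in percent in replicate 1 (x axis) and replicate 2 (y axis), point area by reads, and the line of equality. The median absolute difference was 4.40 percentage points.

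Because 1 read spans several exons, pairs of cassette exons could be scored on the same molecules. Of 165 tested pairs with a frame-shifting exon, 13 were associated in both libraries by Fisher's exact test with Benjamini-Hochberg adjustment (7.88%), against 48 of 496 pairs of cassette exons of any kind (9.68%). The share was no higher than the background. In 11 pairs the exons were included together and in 2 they replaced each other, and 7 pairs joined 2 frame-shifting exons.

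Flot2, a membrane raft scaffold, carried a pair of 91-bp exons that replaced each other. In replicate 1, 15 reads held both exons, 52 the upstream one only, 168 the downstream one only and 38 neither. In replicate 2 the reads were 9, 69, 221 and 47. The log2 odds ratios were -3.89 and -5.09 (adjusted p = 1.74e-16 and 6.84e-29, Fisher's exact test). Both exons have the same length, so a swap keeps the frame, while reads with both or neither shift it. The inclusion given to the upstream exon by the rule (8.20 and 3.91%) counts its reads beside the downstream exon, and so leaves out the reads that hold it alone. With every spanning intron counted as skipping it stood at 23.5%.

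**Figure D4:**
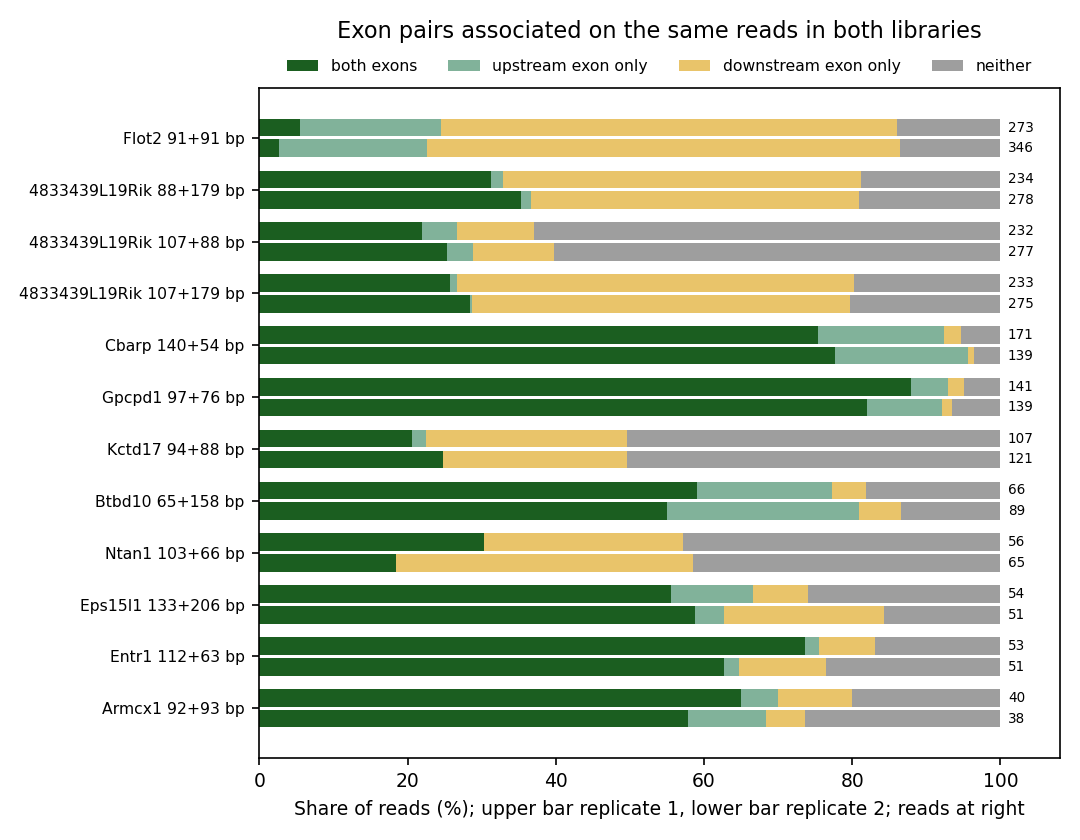
Shares of reads in percent (x axis) with both exons, the upstream one only, the downstream one only or neither, for the associated pairs described in the text (upper bar replicate 1, lower bar replicate 2, reads at the right). In Flot2 most reads held a single exon of the pair.

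The pairs included together lay in 9 genes. In Eps15l1, an endocytic adaptor, the exons of 133 and 206 bp together are 339 bp, a multiple of 3. The summed length was a multiple of 3 in 3 of the 11 pairs included together, 2 of them in 4833439L19Rik, and not in the other 8. Reads with both, the first only, the second only and neither numbered 30, 6, 4 and 14 in replicate 1 and 30, 2, 11 and 8 in replicate 2 (adjusted p = 0.000312 and 0.0254, Fisher's exact test). In 4833439L19Rik, 3 exons of 107, 88 and 179 bp gave 3 associated pairs, for example 51 reads with both the 107-bp and the 88-bp exon and 146 with neither in replicate 1, and 70 and 167 in replicate 2. In Gpcpd1, a glycerophosphocholine phosphodiesterase, exons of 97 and 76 bp were both present on 124 and 114 reads and both absent on 7 and 9. In Kctd17, the 94-bp exon was seldom present without the 88-bp one (2 and 0 reads), while the 88-bp exon was present alone on 29 and 30 reads. Ntan1 showed the same nesting, with 0 reads in either library that held the upstream exon without the downstream one. The other genes with such a pair were Cbarp, Btbd10, Entr1 and Armcx1.

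Inclusion was seldom shown to be tied to where the read began or ended. Recovery by these tests was not measured on simulated data, so ties could go undetected at this depth. The first exon of the read was associated with inclusion in 1 of 86 exons tested (1.16%), against 9 of 326 cassette exons (2.76%). This was Chadl, where the 167-bp exon was included on 13 reads and skipped on 0 from the leading first exon, and included on 1 and skipped on 7 from other first exons, in replicate 1. In replicate 2 these were 18 and 1, and 0 and 12. The last exon was associated in 1 of 42 (2.38%), against 6 of 135 (4.44%). This was Srsf2, where the 4 and 2 inclusion reads that entered this test (of 14 and 7 in all) ended away from the leading last exon, while 133 and 107 skipping reads ended at it and 6 and 4 away from it. Neither share exceeded the background, and both calls rest on few reads.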

How the data were processed

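The deposited tables give, for each library, transcript models with whole-number read counts and no normalization, per the file headers, and the authors' exon structures of those models on mm10 with GENCODE M21. Neither aligner nor version is given in the sources used here. Known models match an annotated transcript, incomplete splice matches hold part of one, NIC chains join annotated sites anew and NNC chains hold an unannotated site. Reads of all classes were matched between libraries by chain of introns. Total counts were 782521 and 935052, and Wilson 95% intervals cover counting error only.

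Inclusion was compared between libraries, and exon pairs and first and last exons within each, by two-sided Fisher's exact tests with Benjamini-Hochberg adjustment at 0.05 (SciPy 1.17.1, statsmodels 0.14.6, Python 3.11.15). Pairs and ends were called when past the threshold in both libraries in the same direction. Ends took Known, NIC and NNC chains with at least 20 reads, 5 of them outside the leading site. The tests between libraries and of exon pairs were run on simulated data, and those of first and last exons were not. Besides the exons altered by known amounts, 181 of 200 tied pairs and 0 of 200 untied pairs of 400 were called.

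Reading frames were added after the data were seen. Their start codon rule was revised 2 times after results were seen, because exons with a start of their own were being called early stops. A chain used its own annotated start, then those of the leading coding transcripts of its form, then those of the gene. Bases are the GENCODE M21 reference, so strain differences were not used.

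The members and gene lists were chosen with earlier results of these data known. Named exons were the 15 with most reads, the 8 nearest 50% inclusion, the 3 on each side of the limits, those of called pairs and ends, the 6 with most reads in each annotation class and those in the splicing list. Others are said to be named after their values were seen. A further pair of exons that replaced each other is counted but not reported further here.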

Additional observations from a re-analysis of the deposited data

How the results depend on the processing

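The set itself depended on the counting. It held 463 exons, 805 with a minimum of 10 reads, 164 with 50, 156 with Known models only, 795 with every spanning intron as skipping and 238 with limits of 10 to 90%. Single libraries gave 507 and 576. None of these settings with both libraries called a difference between libraries. Without single-read models the set held 325. Known models only moved 39 of 58 named exons by more than 1 SD, spanning introns 17 and the removal of single-read models 14. With spanning introns the exons of 4833439L19Rik moved from 17.6 to 34.8%, from 8.01 to 27.7% and, downward, from 93.9 to 79.6%. The call for the first exon fell to 0 with 50 reads and to 0 with Known models only, and the cause was not tested. With Known models only the last exon call numbered 1 but was not Srsf2. The share of exons whose early-stop form was the minor one ranged from 93.8% (limits of 10 to 90%) to 97.9%, alternatives all chosen after the data were seen. It was 97.3% with the start rule tried first and 96.7% with that tried next. Without either replicate it was 97.5 to 97.9%. No paired analysis was possible because there was 1 group.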
